A study of Mus musculus with 83 samples.

Results

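The Rtl1-antisense miRNAs are 6 miRNA genes, Mir431, Mir433, Mir127, Mir434, Mir432 and Mir136, that lie on the plus strand of mouse chromosome 12 inside the coding exon of Rtl1, a gene of the minus strand. They were taken by name and position from a table of 32101 gene features, and their reads were followed in all 83 small RNA libraries of the study. Of the 6 miRNAs, 5 had reads. Mir432 had 0 reads among 255785120 reads of all 83 libraries, which allows up to 0.0117 RPM (reads scaled to library size) over the whole series, so it was not tested.

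A miRNA is cut from a hairpin transcript and carried by an Argonaute protein to mRNAs that pair with its seed. Rtl1 is a retrotransposon-derived gene of the imprinted Dlk1-Dio3 region. It is expressed from the paternal chromosome, while its antisense miRNAs, together with the non-coding RNAs Meg3, Rian and Mirg, are expressed from the maternal one. Since they are transcribed across Rtl1 in the opposite direction, they pair fully with the Rtl1 mRNA and can direct its cleavage, and miR-127 is the best known of them for this. The imprint of the region is a differentially methylated element upstream of Meg3, and DNA methylation on it silences the maternally expressed RNAs in cis.

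The study sequenced small RNA of embryonic stem cells (ESCs) in which Dnmt1, the maintenance DNA methyltransferase, was deleted, and asked which small RNAs arise once methylation is lost. The ESCs are tagged E14 in the labels and given as strain C57BL/6 in the study's methods, and per those methods they carry loxP-flanked Dnmt1 that is removed by Cre after tamoxifen, in serum medium with LIF, with or without feeder cells. Control and Dnmt1 KO cells were taken on days 1, 3, 6, 9, 11 and 25 with 3 libraries per group, and 8 libraries hold RNA pulled down with AGO2 (4 control and 4 Dnmt1 KO), for which the labels give no day and the study names day 9. A pair of libraries labelled "none" (1 per genotype) and 7 libraries of primordial germ cells (PGCs, tagged C57BL/6 and given as C57BL/6J in the methods, sorted on an Oct4-GFP transgene) of E13.5 and E14.5 complete the series, with 1 library per sex and day and 3 more with the suffix R1. The time course of days 1 to 11 was also deposited in R1 form, where 95.4 to 96.9% of the recovered read numbers were even, against 39.0 to 46.2% in those of the same days without the suffix. The R1 libraries were used only as an alternative. The labels do not say whether replicates came from separate cultures, so p-values measure the spread between these libraries.

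The mature miRNAs of all 6 genes are shown first, since the position of each within Rtl1 and its seed are what sets the members apart. Capitals mark the seed, bases 2 to 8 from the 5′ end. The sequences are RefSeq's (table of GRCm38.p6), all 11 of them had exactly 1 match in the NCBIM37 genome, on the plus strand of chromosome 12, and that match lay inside the named feature.
mmu-miR-431-5p: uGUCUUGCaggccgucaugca
mmu-miR-431-3p: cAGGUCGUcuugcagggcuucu
mmu-miR-433-5p: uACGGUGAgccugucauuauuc
mmu-miR-433-3p: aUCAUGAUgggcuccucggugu
mmu-miR-127-5p: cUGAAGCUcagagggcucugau
mmu-miR-127-3p: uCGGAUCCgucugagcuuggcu
mmu-miR-434-5p: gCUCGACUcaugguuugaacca
mmu-miR-434-3p: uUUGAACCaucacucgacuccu
mmu-miR-432: uCUUGGAGuagaucagugggcag
mmu-miR-136-5p: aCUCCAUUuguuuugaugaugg
mmu-miR-136-3p: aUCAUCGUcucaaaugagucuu

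No member shared its seed with another member, and none of the 11 seeds occurred at bases 2 to 8 of another of the 1738 mature miRNAs in the table. The first 20 bases of each, the shortest read length kept, also occurred only once in the genome. The reads of a member can therefore come from its own gene only, as far as exact matches go, although a feature pools the reads of its 5p and 3p arms.

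The features follow the plus strand from the end of the Rtl1 coding sequence to its start (NCBIM37, chr12:110828382-110833613, without the stop codon). Mir431 spans chr12:110828657-110828747, Mir433 chr12:110829925-110830048, Mir127 chr12:110831042-110831138, Mir434 chr12:110832716-110832809, Mir432 chr12:110833166-110833240 and Mir136 chr12:110833527-110833608. All 6 lie whole within the coding sequence. Counted along the Rtl1 mRNA from the first base of the start codon, the site of miR-136-3p begins at base 17, that of miR-434-3p at 818, that of miR-127-3p at 2495, that of miR-433-3p at 3602 and that of miR-431-3p at 4881 of 5232.

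Depth was 870481 to 6239008 reads per library on days 1 to 11, and day 25 was shallower with 521066 to 815523. The AGO2 libraries had 1152390 to 11520126 reads for Dnmt1 KO and 11497724 to 25422978 for control. The small RNA reads over Dnmt1 itself do not check the deletion, since they are not its mRNA and group means ran from 21.1 to 73.8 RPM in the time course. The summed level of 12 ESC miRNAs (the miR-290 and miR-302 clusters) was 110780 to 209785 RPM in every library of the time course, and all 12 had reads in each group. Within that list the 5 miRNAs of the miR-302 and miR-367 cluster were called lower in Dnmt1 KO on days 6 and 9 (5 of 5, log2 fold change -2.07 to -1.34). On the same days 2 of the list, Mir290 and Mir293, were called higher (0.33 to 0.40). The median over the 12 was -0.01 on day 6 and -0.14 on day 9. On day 25, 9 of 12 of the list were called lower (median -0.55). The part of these changes in the results below was not tested. The 48 pairs of replicates had a chi-square per degree of freedom of at least 2.19, more than counting error gives, so each comparison rests on the spread between replicates. For each of these miRNAs, fewer cells that express a miRNA and fewer copies per cell cannot be told apart in such bulk samples.

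On day 1 the members stood at 0.832 to 1.29 times the control level in Dnmt1 KO, and on day 3 at up to 1.73 times. From day 6 on, the 5 detected members were higher in Dnmt1 KO on each day tested, 4.59 to 9.96 times on days 6 and 9 and 8.46 to 13.6 times on day 11. On day 25 the difference was over 1000-fold for the 2 most abundant, with control means of 37.4 and 10.6 RPM. RPM are given below as the file gives them, and the test (limma-trend on log2(RPM + 1), with Benjamini-Hochberg adjusted p over 2582 features, called under 0.05) was fitted after scaling between libraries, so that its log2 fold changes need not equal the ratio of the RPM.

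Mir127, the member with the most reads, had 5131, 5591 and 6082 RPM in the day 1 controls and 4563, 4220 and 5201 in Dnmt1 KO. The groups overlapped, and the difference of -0.36 on the log2 scale (SE 0.18, adjusted p = 0.382, limma) was not called. On day 6 the controls had 1788, 1781 and 1495 RPM and the Dnmt1 KO libraries 18282, 17124 and 15017. All 3 Dnmt1 KO libraries lay far above the controls (log2 fold change 3.21, SE 0.18, adjusted p = 1.13e-17, limma). Day 9 gave 5920, 4532 and 4615 RPM in control against 38874, 34320 and 38219 in Dnmt1 KO, and day 11 gave 2864, 2675 and 2470 against 37827, 33858 and 31610. By day 25 Mir127 was down to 53.8, 19.2 and 39.2 RPM in the controls (10 to 32 reads a library) but at 45704, 46923 and 45378 RPM in Dnmt1 KO, a ratio of means of 1230. Each Dnmt1 KO library was above, and each control library below, all libraries of its genotype on earlier days. In order of mean, day 25 Dnmt1 KO came first, then days 9 and 11 of Dnmt1 KO with overlapping libraries, then day 6. Below those lay day 1 control, day 3 Dnmt1 KO, day 9 control and day 1 Dnmt1 KO, whose libraries overlapped each neighbour's, and at the bottom the controls of days 3, 11, 6 and 25, each clear of the next.

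Mir434, whose gene lies nearer the start of the Rtl1 coding sequence, followed the same course at a lower level. It had 423, 454 and 401 RPM in the day 6 controls and 2731, 3026 and 2803 in Dnmt1 KO, and 647, 732 and 634 against 8426, 7327 and 7619 on day 11. The RPM of the genotypes did not overlap on any of the 6 days, and how many of all features did the same was not counted. The difference was not called on day 1 (0.27, SE 0.21, adjusted p = 0.649, limma) or day 3 (0.65, SE 0.21, adjusted p = 0.0582, limma). The log2 fold change was 2.64 (SE 0.21) on day 6 and 3.62 (SE 0.21) on day 11, both called. On day 25 the controls had 10.8, 17.3 and 3.68 RPM (3 to 9 reads) and Dnmt1 KO 12050, 10623 and 11789, a ratio of means of 1087.

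Mir136, the member closest to the Rtl1 start codon, had 200, 197 and 190 RPM in the day 6 controls and 1090, 1245 and 1160 in Dnmt1 KO, and 335, 283 and 290 against 3308, 3044 and 3022 on day 11. The log2 fold change on these days was 2.46 (SE 0.18) and 3.45 (SE 0.18). Of the 3 day 25 controls, 2 had no read of Mir136 and 1 had 1 read, against 3464, 3386 and 3273 RPM in Dnmt1 KO. With 1 read in the whole control group the ratio is 6404 with an exact 95% counting interval of 1149 to 252976, so little can be said of its size beyond the lower end.

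Mir431 and Mir433, the members nearest the end of the Rtl1 coding sequence, were the least abundant. Mir431 had 98.6, 102 and 106 RPM in the day 11 controls and 974, 859 and 761 in Dnmt1 KO (log2 fold change 3.14, SE 0.23). On day 25 it had 4 reads over the 3 controls and 916, 852 and 843 RPM in Dnmt1 KO, a ratio of 412 with an exact counting interval of 161 to 1514. Mir433 had 15.4, 16.5 and 16.1 RPM against 237, 196 and 221 on day 11 (log2 fold change 3.77, SE 0.17). It had no read in any day 25 control and 146, 151 and 197 RPM in Dnmt1 KO, at least 33.4-fold higher against 3 reads per library.

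**Figure D1:**
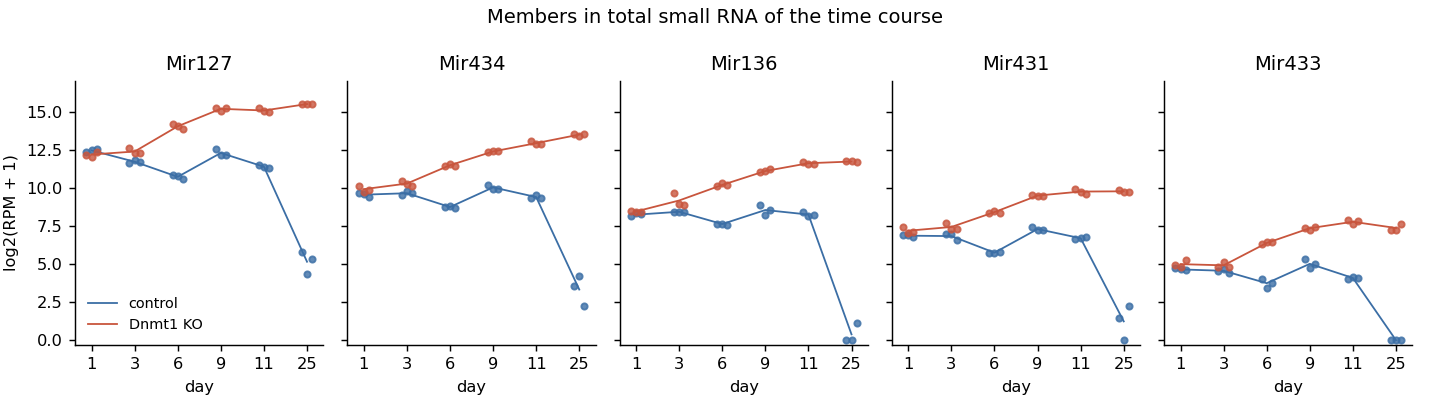
Level of the 5 detected members in total small RNA, as log2(RPM + 1), by day in control (blue) and Dnmt1 KO (red). Each point is 1 library (3 per group), lines join the means of the log2 values and days are evenly spaced. From day 6 the genotypes lie 4.59 times or more apart in mean RPM. On days 1 and 3 the means differ by at most 1.73 times, and no member was called on day 1. Only Mir127 on day 1 has overlapping libraries, and how many of all features lack overlap was not counted. On day 25 each control lies below all earlier ones, with Mir127 at 19.2 to 53.8 RPM and Mir433 at 0, against 45378 to 46923 and 146 to 197 RPM in Dnmt1 KO.

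Counted over the 5 members tested, none was called on day 1, where 3.80% of all features were called in either direction. No member had an unadjusted p under 0.05 on that day in limma, and voom on the recovered reads called 0 as well. On day 3, 2 members were called higher, Mir127 (0.69, SE 0.18, adjusted p = 0.0147, limma) and Mir136 (0.76, SE 0.18, adjusted p = 0.00534), where 4.49% of all features were called higher. The day 3 calls rest on single libraries: without Dnmt1 KO replicate 1, which had 6213 RPM of Mir127 and 821 of Mir136 against 4957 and 4895, and 485 and 472, in the others, no member was called, and without control replicate 1 only 1 was.

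On days 6, 9, 11 and 25 all 5 members tested were called higher in Dnmt1 KO, against 13.7%, 12.3%, 6.27% and 18.0% of all features called higher on those days. The median log2 fold change of the members was 2.56, 2.47, 3.62 and 10.25, beside 0.14, 0.09, -0.05 and 0.00 over all features. The day 25 median stays at 10.25 with Mir433 at its bound (5.06 on the log2 scale). The adjusted p was at most 1.54e-10 for any member on any of these days.

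The change of the Dnmt1 KO effect, which is the difference between genotypes and not the level in either, was tested between consecutive sampling days. All 5 members were called only from day 3 to day 6 and from day 11 to day 25. From day 1 to day 3 the Dnmt1 KO effect was called as risen for Mir127 only, by 1.05 (SE 0.26), where 3.64% of all features were called higher. The estimates of the other members were also positive, from 0.12 for Mir433 to 0.63 for Mir136, and voom called 2 members. From day 3 to day 6 it rose for all 5 members, by 1.70 for Mir136 to 2.52 for Mir127 on the log2 scale (median 1.98, 4.80% of all features). Over that step the members' summed level rose from 7392 to 21246 RPM in Dnmt1 KO and fell from 4624 to 2375 RPM in control. From day 6 to day 9 the effect was called as changed for no member, with differences of -0.25 (SE 0.33) for Mir431 to 0.21 (SE 0.25) for Mir136. Here 0 members had an unadjusted p under 0.05 in limma and 0 were called by voom. Of all features, 0.503% were called in either direction. The level itself rose in both genotypes, in sum from 21246 to 45541 RPM in Dnmt1 KO and from 2375 to 6631 RPM in control. From day 9 to day 11 the effect was called as risen further for Mir433 (1.31, SE 0.24) and Mir434 (1.15, SE 0.30), with 2.32% of all features called higher. The estimates of the other members were 0.76 to 0.83 and were not called. This step is unsettled: Dnmt1 KO replicate 1 of day 9, control replicate 1 of day 9 or Dnmt1 KO replicate 1 of day 11 left out gave 1 call each, and Dnmt1 KO replicate 3 of day 11 left out gave 4, while voom gave 5. From day 11 to day 25 the effect rose for all 5, by 3.57 for Mir433 to 7.89 for Mir136, with 10.7% of all features called higher. Over that step the members' sum went from 46429 to 61899 RPM in Dnmt1 KO and from 3762 to 50.2 RPM in control. The day 25 controls had 19 to 39 reads of all members.

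**Figure D2:**
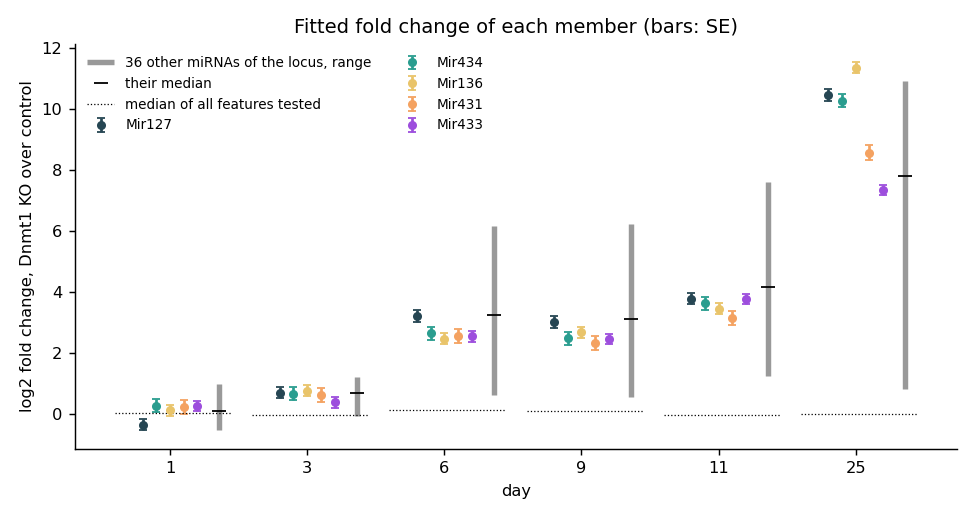
Fitted log2 fold change of Dnmt1 KO over control for each detected member by day, with standard errors from limma. Grey bars give the range of fitted values of the 36 other tested miRNAs of the locus and the black dash their median, and the dotted line is the median of all 2582 features. The members lie close together on each day up to day 11 (3.14 to 3.77 on day 11) and spread out on day 25, from 7.33 to 11.34.

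Each genotype was also compared with itself over time. In Dnmt1 KO, all 5 members rose from day 1 to day 11, by 2.73 to 3.32 on the log2 scale, with 14.1% of all features called higher. From day 11 to day 25 the only call there was Mir433, lower by -0.50 (SE 0.17, adjusted p = 0.0118, limma), with 26.3% of all features called lower, and that call was lost without Dnmt1 KO replicate 1 of day 11 or of day 25. In the controls, Mir127 (-1.08, SE 0.18) and Mir433 (-0.57, SE 0.17) were lower on day 11 than on day 1, at a background of 18.3% called lower. From day 11 to day 25 all 5 members fell in the controls, with 33.8% of all features called lower. The labels give no batch, so a batch of the day 25 libraries cannot be told apart from time within a genotype. The ratio of means, day 11 over day 25, was 71.4 for Mir127 and 63.5 for Mir434, and the median of the members was -6.17 on the log2 scale beside -0.09 over all features.

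The controls held a measurable level of all 5 members before day 25, and it is given here beside miRNAs of mesenchymal cells, among which feeder fibroblasts count. The summed level of the members was 6789 ± 421 RPM (SD, n = 3) on day 1, 4624 ± 302 on day 3, 2375 ± 193 on day 6, 6631 ± 970 on day 9, 3762 ± 225 on day 11 and 50.2 ± 15.1 on day 25. The mesenchymal list (Mir143, Mir145, Mir199a-2 and Mir214, the 4 of 6 with reads; Mir199a-1 was at 0 in these libraries and Mir199b is not among the features) summed to 9177 to 11333, 10331 to 10698, 6132 to 7144, 10984 to 14913, 10596 to 11209 and 954 to 1050 RPM on the same days. Both sums were at their lowest on day 25 and next on day 6, while days 1, 3 and 11 had like sums of the list and differed in the members.

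Mir143 made up most of that sum. Mir214 had 91.9 to 112 RPM in the day 11 controls and at most 1 read a library on day 25, and Mir199a-2 had 13.6 to 17.9 RPM and 0 reads. In Dnmt1 KO the list also dropped, from 12417 to 14632 RPM on day 11 to 1247 to 1292 on day 25, while the members' sum was at 46429 ± 3898 and 61899 ± 401 RPM. On day 25 Mir214 had 1 to 2 reads and Mir199a-2 0 to 1 in those libraries and Mir143 641 to 985, while the members were at 6.19% of all reads. In the comparison of genotypes, 3 of 4 tested mesenchymal miRNAs were also called higher in Dnmt1 KO on days 3, 6, 9 and 25 (the other 1 was lower on day 25), and on day 11 there were 2 such calls. Over these 5 days the list's median log2 fold change lay between 0.44 and 0.77. Of the 3 higher calls on day 25, those of Mir199a-2 and Mir214 rest on at most 2 reads a library in either genotype. The median of that day rests in part on them. The part of other cells in the control level of days 1 to 11 was not tested. Of 4 blood miRNAs only 1 was tested, and it was called higher in Dnmt1 KO on days 6, 9 and 11 and lower on day 25. Its list summed to 577 to 657 RPM in control and 1615 to 2080 in Dnmt1 KO on day 11, and its part in the result was not tested either.

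**Figure D3:**
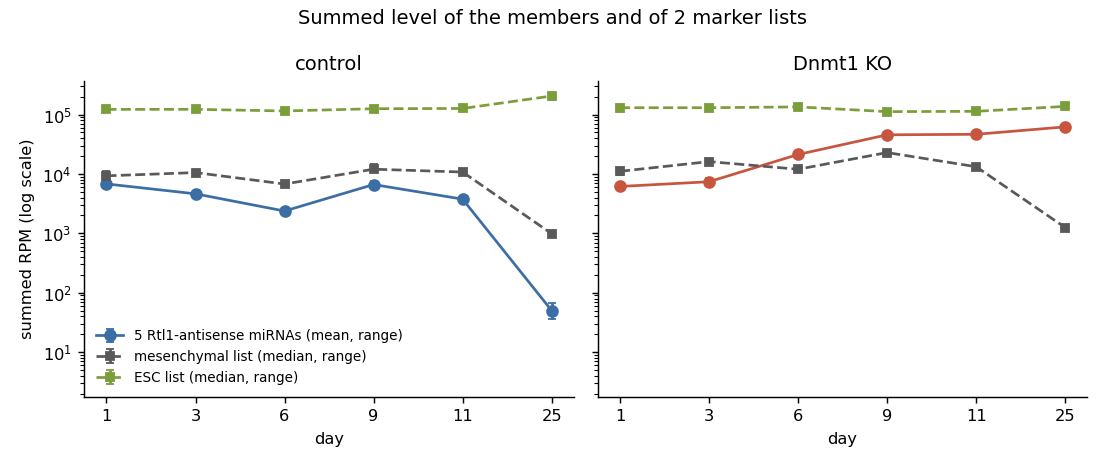
Summed RPM (log axis) of the 5 detected members (circles, mean with range of 3 libraries) and of the mesenchymal and ESC marker lists (squares, median with range) by day, in control (left) and Dnmt1 KO (right). In control the members and the mesenchymal list are both at their lowest on day 25. In Dnmt1 KO the mesenchymal list drops to 1247 to 1292 RPM and the members reach 61481 to 62281.

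The Rtl1 feature, which spans the 5 detected members, had reads only through them. It was the only other feature that holds any of the members. After the members' reads were taken off, 0 to 11 reads were left in each of the 36 time course libraries, at most 0.0165% of the Rtl1 reads, and in AGO2 Dnmt1 KO 0 to 2 of 64231 to 591892. A change of the Rtl1 feature in this table is therefore the sum of the antisense miRNAs and gives no reading of the Rtl1 transcript. The sources used here do not give whether counting took account of strand.

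Within the members, the order by level was the same in nearly all of the total RNA. By RPKM, which divides the reads by the span of the feature, the order Mir127, Mir434, Mir136, Mir431, Mir433 held in all 33 libraries of the time course outside the day 25 controls. Mir127 supplied 70.9 to 82.4% of the members' reads in the means of these 11 groups and Mir434 up to 18.6%. The share of Mir127 differed between the genotypes by day. Day 1 had 75.7% ± 2.46 (SD, n = 3) in Dnmt1 KO against 82.4% ± 1.98 in control. The shares of day 3 were close, at 72.5% ± 0.67 and 72.3% ± 0.20. By day 6 they were 79.0% ± 1.96 in Dnmt1 KO against 71.0% ± 1.40, followed by 81.5% ± 1.12 against 75.7% ± 0.76 for day 9 and 74.1% ± 0.89 against 70.9% ± 1.19 for day 11. The libraries of the genotypes did not overlap on days 1, 6, 9 and 11, with control the higher on day 1 and Dnmt1 KO on the other 3 days, and no test was made of these shares.

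In the AGO2 pull-down, the members were high in Dnmt1 KO and scarce in control. Mir127 had 34744, 29496, 29654 and 26121 RPM in the 4 Dnmt1 KO libraries and 173, 176, 3.2 and 3.5 in the 4 controls. Mir434 had 16203, 20644, 14904 and 19447 against 105, 87.1, 2.47 and 3.11, and Mir136 had 3173, 4270, 3159 and 3590 against 19.3, 18.3, 1.75 and 2.05. The lesser members kept the same picture, with Mir431 at 1388 to 1823 RPM against 0.194 to 12.3 and Mir433 at 203 to 424 against 0 to 2.61. No library of one genotype came near the other.

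All 5 members tested were called higher in AGO2 Dnmt1 KO, with 24.8% of the 456 features called higher. No member had 10 RPM in 3 AGO2 control libraries, so each passed the filter for testing only with Dnmt1 KO libraries. The log2 fold change ran from 7.15 (SE 0.52, adjusted p = 3.37e-06, limma) for Mir433 to 9.84 (SE 1.25, adjusted p = 0.000205) for Mir127, with a median of 8.64 beside 0.10 over all features. Control libraries 1 and 2 stood apart from 3 and 4. Their mean level was 52.0 times higher for Mir127, 34.5 times for Mir434, 9.91 times for Mir136 and 53.8 times for Mir431, and Mir433 had 1 read in libraries 3 and 4 together. The split was not particular to the members, since Mirg of the same region differed 14.4-fold, whereas Mir294, an ESC miRNA, differed 1.03-fold and Mir143 1.13-fold. Between the same pairs of libraries in AGO2 Dnmt1 KO the members' ratios were 0.527 to 1.15 and that of Mir294 was 0.504. The size of the difference therefore depends on the libraries. With libraries 1 and 2 alone of each genotype the log2 fold changes were 5.55 to 7.12, with 3 and 4 alone they were 8.46 to 12.29, and all 5 were called both ways. The design text of the series may treat these 4 libraries as 2 biological replicates, and averaging them in pairs gave 5 calls. The mesenchymal list summed to 3698 to 4367 RPM in AGO2 Dnmt1 KO and 1336 to 1831 in AGO2 control, with Mir214 at 0 to 9 and 0 to 5 reads. The blood list summed to 3152 to 6179 and 1105 to 1475 RPM, and the part of either in the result was not tested.

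**Figure D4:**
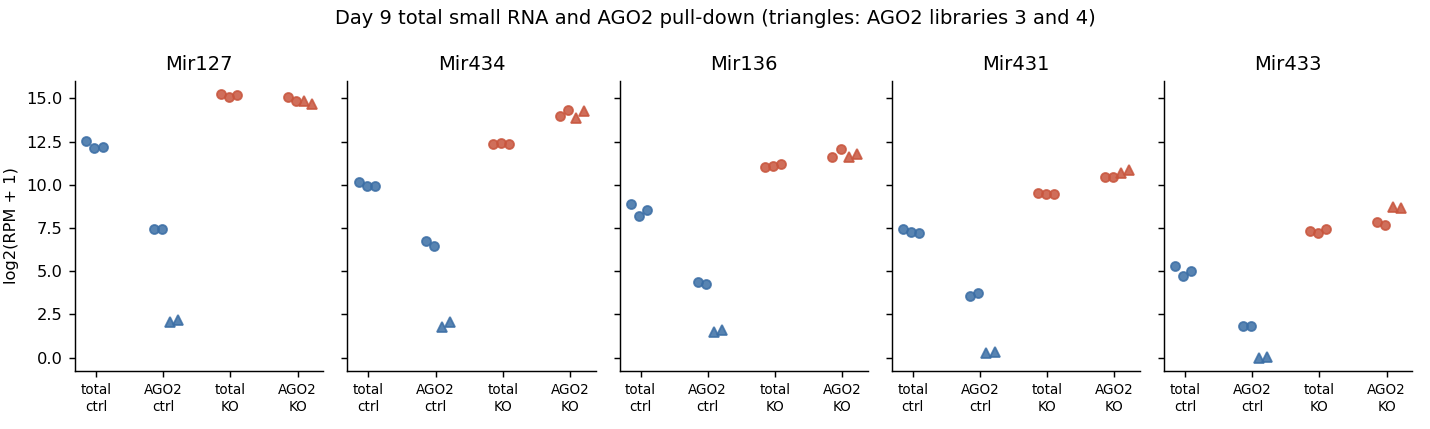
Level of each detected member as log2(RPM + 1) in day 9 total small RNA (3 libraries per genotype) and in the AGO2 pull-down (4 per genotype), control in blue and Dnmt1 KO in red. Triangles are AGO2 libraries 3 and 4. In Dnmt1 KO the members lie between 0.808 and 3.34 times the total level, whereas AGO2 control lies below total control for each member and falls into 2 pairs.

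Set beside total RNA of day 9, the AGO2 controls had 56.6 times less Mir127, 21.1 times less Mir434, 36.5 times less Mir136, 26.5 times less Mir431 and 24.7 times less Mir433 in mean RPM. The fit called all 5 lower, but 73.1% of all features were called lower there and the median over all features was -2.43. This call depends on control libraries 3 and 4: with libraries 1 and 2 alone, Mir127 was called lower (-0.42) and Mir434 (0.97), Mir433 (0.76) and Mir431 (0.66) were called higher after scaling, though their RPM were lower. In total RNA the day 9 controls held 5986 to 7746 RPM of all members and 195 to 222 RPM of Mir214. The AGO2 controls held 7.62 to 311 RPM of the members and at most 0.435 RPM of Mir214. The 2 kinds of library were made apart, so that kind, batch and any difference in culture cannot be told apart.

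In Dnmt1 KO, AGO2 over total was 0.808 for Mir127, 1.62 for Mir136, 1.94 for Mir433, 2.19 for Mir431 and 3.34 for Mir434 in mean RPM. The fit called the last 4 higher, by 1.88 to 2.92 on the log2 scale against a median of -2.40 over all features, with 24.1% of all features called higher. With library totals as the scaling no member was called and Mir127 was at -0.31. The share within the members does not depend on the scaling. Mir434 made up 29.1 to 37.8% of the members' reads in the 4 AGO2 Dnmt1 KO libraries and at most 12.6% in the 3 of total RNA, while Mir127 made up 50.8 to 62.3% and 80.4 to 82.6%. In control, Mir434 was at 29.4 to 34.8% in AGO2 and 14.9 to 16.5% in total. None of these 4 pairs of groups overlapped, and each exact permutation test (two-sided, 4 against 3 libraries) gave p = 0.0571, adjusted 0.0571 over 4 tests. That is the smallest value this design allows, so the test could not fall under 0.05. The shares of Mir127 and Mir434 are parts of the same total, so their tests are not independent, and each AGO2 library was taken as a replicate. Shares like these were not particular to the AGO2 libraries. The "none" Dnmt1 KO library had 33.6% Mir434 and 58.3% Mir127 among 223 reads of the members. In the "none" control the shares were 27.8% and 52.8% of 36 reads.

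PGCs, which lose DNA methylation in the embryo, had all 5 members in the 4 libraries without the R1 suffix. With 1 library per sex and day there is no test, and the intervals given (exact Poisson, 95%) cover counting error only. Mir127 was at 2603 RPM (2544 to 2663) in E13.5 female, 2231 (2178 to 2286) in E13.5 male, 1519 (1478 to 1561) in E14.5 female and 1600 (1541 to 1660) in E14.5 male. Mir434 was at 1483, 971, 431 and 461 RPM in the same order, Mir431 at 317, 217, 92.5 and 87.1, Mir433 at 84.9, 74.9, 39.0 and 41.5, and Mir136 at 81.0, 79.6, 27.4 and 35.2. In these 4 libraries E13.5 was above E14.5 of the same sex for each member, 1.71 to 3.44 times in females and 1.39 to 2.49 times in males. The R1 libraries did not bear this out for males. E13.5 male R1 (60317 reads) had 6 reads of all members, with Mir127 at 66.3 RPM, Mir434 at 33.2 and the other 3 at 0, against 2034 and 1018 RPM of Mir127 and Mir434 in E14.5 male R1. E13.5 female R1 had 4658 RPM of Mir127. The 12 ESC miRNAs summed to 696 RPM in E13.5 male R1, with reads of 4, against 24377 RPM in the library without the suffix. In all, 14 of 15 R1 values lay outside the counting interval of the library they stand beside, so the difference between days depends on which libraries are used. That count leaves out the counting error of the R1 values themselves, which is large where reads are few.

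The order of the members in PGCs was not that of the ESCs. Mir431 stood above Mir136 by RPKM in these 4 PGC libraries, the reverse of the 33 ESC libraries, with Mir136 at no more than 2.23% of the members' reads (4.43 to 8.27% in the means of the time course groups outside the day 25 controls, 6.66% and 14.6% in AGO2 Dnmt1 KO and control) and Mir431 at 3.91 to 6.94% (1.41 to 2.73% in the time course, 2.97% and 3.21% in AGO2, and 8.33% of 36 reads in the "none" control). Mir434 took 32.5% and 27.2% in E13.5 female and male and 20.4% and 20.7% on E14.5. Mir202, a miRNA of the gonadal somatic cells, was at up to 154 RPM in these 4 libraries and the mesenchymal list at 547 to 810 RPM. In the R1 libraries Mir202 was at 0 in both of E13.5 and 164 RPM in E14.5 male, and the mesenchymal list at 69.8, 0 and 779 RPM in E13.5 female, E13.5 male and E14.5 male. The part of such cells in the PGC values was not tested, and batch cannot be told apart from cell type.

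**Figure D5:**
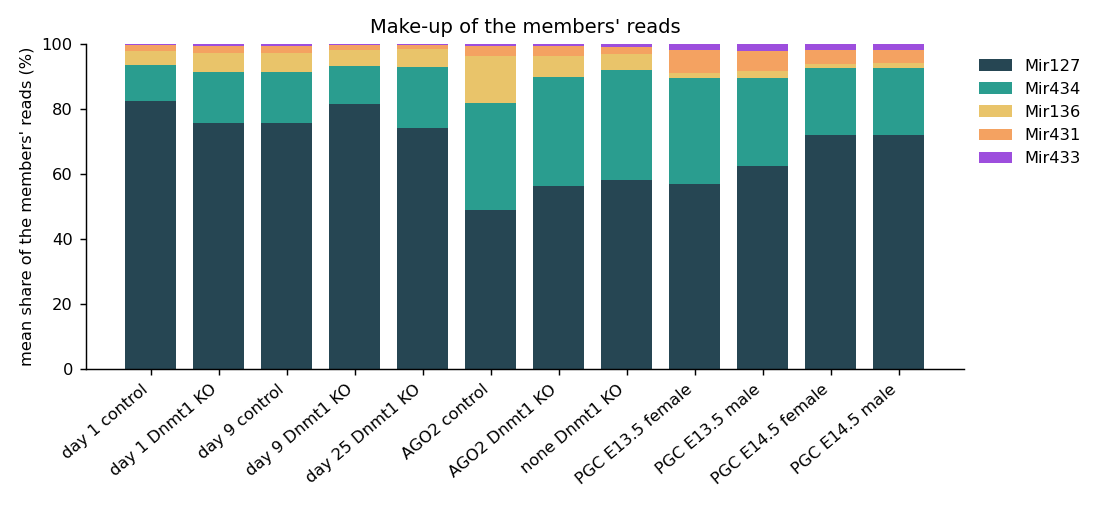
Mean share (%) of each detected member in the members' summed reads, for selected groups (3 libraries per group in the time course, 4 in AGO2, 1 in PGC and none). Mir127 falls from 81.5% in day 9 Dnmt1 KO to 56.3% in AGO2 Dnmt1 KO with Mir434 rising from 11.7% to 33.4%, and Mir431 takes a larger share in PGCs. The "none" Dnmt1 KO library has Mir127 at 58.3% and Mir434 at 33.6%, of 223 reads.

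The rest of the Dlk1-Dio3 region was also higher in Dnmt1 KO. Between Dlk1 and Dio3 the table has 43 other miRNA features, 7 before Rtl1, 3 from Rtl1 to the end of Rian and 33 after Rian, of which 6, 2 and 28 were tested. On day 11 all 36 were called higher in Dnmt1 KO, with medians of 4.26, 5.32 and 4.06 in the 3 groups and 3.62 for the members. On day 3 the counts were 3 of 6, 2 of 2 and 13 of 28, and on day 25 again all 36 were called. Since 19 of the 36 had no read in any day 25 control, their fitted fold changes depend on the pseudocount. The median over the 36 was 7.80 as fitted and 6.55 with these 19 at their bound of 3 reads per library. In the AGO2 comparison 35 of 36 tested were called higher, with a median of 6.94. In either fit a feature could pass the filter for testing with Dnmt1 KO libraries alone, which favours calls of higher. Day 11 control means of the 36 tested in the time course ran from 0.751 RPM (Mir770) to 906 RPM (Mir411). How many of them passed through Dnmt1 KO alone was not counted.

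The features with the profile most like the members' (smallest root mean square difference from the members' median profile, over 12 day and genotype means of log2(RPM + 1), each profile centred) were Mir410 (0.25), Mir411 (0.25), Mir300 (0.31), Rian (0.32) and Mirg (0.38), all of the same region. Mirg spans Mir410, so its profile counts the reads of Mir410 again. The median difference over the 2576 other features was 2.52. Mir410 rose from 313 to 4504 RPM between day 11 control and Dnmt1 KO, and Mir411 from 906 to 9647. Among the long RNAs of the region, Rian (host of small RNAs) had 408 to 730 reads in the day 11 controls and 10939 to 14607 in Dnmt1 KO, of which 153 to 293 and 2019 to 2525 lay outside the 17 features inside it. Meg3 had 3 to 7 and 94 to 125 reads, of which 0 to 4 and 36 to 55 were left outside its 3 inner features, and Mirg kept 0 to 1 and 56 to 68 reads after its 10 inner features were taken off. The protein-coding genes Dlk1 and Dio3 had at most 5 reads in any library of the time course or AGO2 and were not tested, so reads of 20 to 24 nt gave no reading of them.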

How the data were processed

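Small RNA was sequenced in total RNA, AGO2 pull-downs and PGCs. Per the labels and methods, the authors trimmed reads with Trim Galore (0.3.5), mapped reads of 20 to 24 nt to NCBIM37 with Bowtie2 (2.2.9) and quantified gene features in SeqMonk. The deposited values are RPKM per feature, normalized by the authors to the reads of each library and the feature span. RPM was RPKM times the span in kilobases. Low nonzero values, the only ones checked, came out as whole reads (within 5% of the value of 1 read) for 100% of them in all 83 libraries. Higher values were rounded to whole reads. All 83 columns were used or named, 0 were left out.

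Groups follow the sample titles, since some genotype tags go against them. Features with at least 10 RPM in at least 3 libraries were tested with limma (3.58.1, R 4.3.3; trend, log2(RPM + 1), TMM scaling computed here), in 1 fit for the time course, 1 for AGO2 and 1 for AGO2 with day 9, with Benjamini-Hochberg adjustment over all features tested. A fold change on this scale understates the change of low features. The method was tested on simulated data. AGO2 replicate numbers paired (the deviations of 4 of 4 pairs correlated, 0.194 to 0.386), as read from the data and not from the labels, and the fit with the replicate number as a block called 5 of 5 members as without it. Alternatives were other scalings, pseudocounts and filters, voom on the recovered reads, single days, the R1 libraries, the block and leaving out each library.

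The members and marker lists were chosen with earlier results of these data known. Named were all 6 members, any feature that holds one (Rtl1), the 5 features with the nearest profile, and Dlk1, Meg3, Rian, Mirg and Dio3, with the other miRNAs of the region as counts and medians. Intervals and limits from a count of 0 cover counting error only.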

Additional observations from a re-analysis of the deposited data

Results flagged for a closer look

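The Dnmt1 KO effect differed between consecutive days for the following members, by the limma test of the change itself with adjusted p under 0.05. From day 1 to day 3 it rose for Mir127 (1.05 on the log2 scale). From day 3 to day 6 it rose for Mir431 (1.94), Mir433 (2.16), Mir127 (2.52), Mir434 (1.98) and Mir136 (1.70). From day 9 to day 11 it rose for Mir433 (1.31) and Mir434 (1.15). From day 11 to day 25 it rose for Mir431 (5.42), Mir433 (3.57), Mir127 (6.68), Mir434 (6.63) and Mir136 (7.89). Over that last step the members' fitted change was -0.50 to 0.47 within Dnmt1 KO and -7.87 to -4.07 within control.

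The 2 libraries labelled "none" entered no comparison. The control library (57155 reads) had 19 reads of Mir127, 10 of Mir434 and 4 of Mir136, and the Dnmt1 KO library (9830 reads) had 130 of Mir127, 75 of Mir434, 11 of Mir136 and 5 of Mir431. These counts are above the 3 reads that a count of 0 allows. In sum the members were at 630 RPM and 22686 RPM. With 1 library per genotype the difference was not tested.

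In the AGO2 groups of 4 libraries, none of 10 tests found a library apart from the other 3 (Dixon's gap over range). Such a test cannot single out a group that splits into pairs.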

How the results depend on the processing

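The count of members called was the same under each alternative run for days 6, 9, 11 and 25, for the changes from day 3 to 6, day 6 to 9 and day 11 to 25, for control day 25 versus 11, for Dnmt1 KO day 11 versus 1 and for AGO2 Dnmt1 KO versus control. Day 1 gave 1 call when fitted alone (Mir127, lower). Day 3 gave 4 calls with a pseudocount of 5, with voom or fitted alone, 0 with no filter, and 0 to 2 with a library left out. The change from day 1 to 3 gave 2 calls with a pseudocount of 5, voom or the R1 libraries and 0 with no filter. That from day 9 to 11 gave 4 with median-ratio factors or the R1 libraries, 5 with a pseudocount of 5 or voom, 1 with no filter, and 1 to 4 with a library left out. Control day 11 versus 1 gave 1 with no filter. Dnmt1 KO day 25 versus 11 gave 3 with library totals, a filter on the mean or voom, 2 with a pseudocount of 5, and 0 to 1 with a library left out. AGO2 versus total in Dnmt1 KO gave 0 with library totals. The cause was not tested.

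Reversed directions were those of small differences, apart from AGO2 versus total. With library totals, Mir136 was at -0.0078 for day 6 to 9 and 0.0095 for control day 11 versus 1, Mir431 at 0.016 for Dnmt1 KO day 25 versus 11 (0.014 with a filter on the mean) and Mir127 at -0.31 for AGO2 versus total in Dnmt1 KO. With no filter, Mir136 was at 0.16 for control day 11 versus 1 (0.0023 with voom) and -0.46 for Dnmt1 KO day 25 versus 11 (-0.031 with median-ratio factors), where Mir127 was at -0.15 and Mir434 at -0.015. Mir433 was at 0.074 for day 6 to 9 with a pseudocount of 5, and for day 1 to 3 at -0.049 with no filter and -0.15 with the R1 libraries, where Mir136 was at -0.044 on day 1. With AGO2 libraries 1 and 2 alone, AGO2 versus total in control was 0.66 for Mir431, 0.76 for Mir433, 0.97 for Mir434 and 0.11 for Mir136. With a library left out, Mir136 ranged from -0.076 to 0.050 for control day 11 versus 1, Mir433 from -0.23 to 0.066 for day 6 to 9, and for Dnmt1 KO day 25 versus 11 Mir431 from -0.18 to 0.038 and Mir136 from -0.021 to 0.086.

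In the time course the replicate numbers share only a number (correlations of -0.066 to 0.047, 0 of 18 over 0.1). The fit with the replicate number as a block gave the count of the fit without it in all 15 comparisons of the time course (0 on day 1, 2 on day 3, 5 on days 6 to 25) and in AGO2 (5). It was not run for AGO2 versus total, whose libraries share no pairing. Depth limits the day 25 controls, where a member had 0 to 32 reads, the "none" libraries (0 to 130) and the E13.5 male R1 library, with 6 reads of all members.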
